A study of Mus musculus with 21 samples.

Results

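The alpha and beta tubulin genes were examined in the mouse cortex after high-frequency head impact (HF-HI). Members were the genes with an alpha or beta tubulin symbol in the GENCODE annotation, and 9 of the 5544 genes with values met this rule. They were the 3 alpha tubulins Tuba1a, Tuba1b and Tuba4a and the 6 beta tubulins Tubb2a, Tubb2b, Tubb3, Tubb4a, Tubb4b and Tubb5. Cortical RNA-seq came from wild-type male mice of the strain C57BL/6 (C57Bl/6J in the methods of the study), 12 weeks of age per the labels, with 10 sham mice and 11 HF-HI mice and one library per mouse. HF-HI mice received repeated daily head impacts under isoflurane over successive days, and sham mice were anesthetized and handled alike without an impact. Cortex was collected 24 h after the last impact. The model is one of closed-head impact in young adult males, and the tissue is whole dissected cortex with all of its cell types.

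Microtubules are hollow polymers built from dimers of 1 alpha and 1 beta tubulin protein, and in neurons they fill axons and dendrites, carry motor-driven transport and give the processes their shape. Mammals make several versions (isotypes) of each subunit from separate genes. The isotypes are nearly the same in their globular bodies and differ mostly in the acidic tail at the C-terminus, which projects from the lattice and binds motors and associated proteins. Tuba1a is abundant in postmitotic neurons and growing processes, Tuba1b is expressed in most cells, and Tuba4a is an isotype of mature neurons whose gene encodes a protein lacking the terminal tyrosine of other alpha tubulins. Tubb3 is the classical neuron-specific beta tubulin, Tubb2b is prominent during cortical development, Tubb2a is its close paralog in mature brain, and Tubb4a is found in neurons and in oligodendrocytes. Tubb4b and Tubb5 are more broadly expressed. Cells also limit the amount of tubulin mRNA through autoregulation, in which free tubulin dimers lead to decay of tubulin mRNAs that are being translated.

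The coding sequence of the C-terminal tail shows how alike or unlike beta tubulin genes are base by base. The last 60 coding bases, stop codon included, are given for 2 beta pairs from GENCODE transcripts of GRCm38 (mm10), all on the minus strand and written 5′ to 3′. Capitals mark bases that differ from the other member of the pair at the same distance from the stop codon.
Tubb2a, chr13:34074468-34074527: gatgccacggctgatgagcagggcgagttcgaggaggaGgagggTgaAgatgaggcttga
Tubb2b, chr13:34127471-34127530: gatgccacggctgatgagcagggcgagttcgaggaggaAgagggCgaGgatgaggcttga
Tubb4a, chr17:57080690-57080749: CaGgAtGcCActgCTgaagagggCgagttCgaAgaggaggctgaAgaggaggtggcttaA
Tubb4b, chr2:25222308-25222367: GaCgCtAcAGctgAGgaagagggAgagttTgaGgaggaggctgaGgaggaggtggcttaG
Tubb2a and Tubb2b differed at 3 of these 60 bases, none of which changes the encoded amino acid. Tubb4a and Tubb4b differed at 13 when compared without gaps. Their coding sequences are 1335 and 1338 bases long, so part of the 13 comes from a shift in position. The 13 is not a count of amino acid differences.

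Over the whole coding sequence, Tuba1a and Tuba1b were 98.3% identical and Tubb2a and Tubb2b 96.5% identical. The genes of each pair lie close together, Tuba1a at chr15:98949837-98953703 and Tuba1b at chr15:98931425-98934565, and Tubb2a at chr13:34074274-34078007 and Tubb2b at chr13:34126748-34130466, each on the minus strand with 4 exons. Other pairs within the alpha or within the beta family were 81.4% to 85.0% identical, and alpha and beta coding sequences 54.4% to 57.1%. Over whole transcripts, untranslated regions included, the longest run without a difference was 551 bases between Tubb2a and Tubb2b and 281 bases between Tuba1a and Tuba1b. It was 38 bases between Tubb4a and Tubb4b and at most 53 bases in the other pairs within a family.

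The reads were 100 bases long, so each transcript was cut into every possible 100-base window and each window was looked up in all other annotated genes. For Tuba1a, 65.1% of windows were also found in another gene, and for Tuba1b 69.5%. Windows found in the partner gene made up 26.3% of Tuba1a and 27.3% of Tuba1b. Tuba1c, another near-identical alpha tubulin whose value was not analysed here, held 34.9% of the windows of Tuba1a and 48.6% of those of Tuba1b. Among the beta tubulins, 35.9% of the windows of Tubb2a were found in Tubb2b and 26.1% of those of Tubb2b in Tubb2a. The Tubb4b transcript shared 29.2% of its windows, with processed pseudogenes and not with another gene of the table. No window was shared for Tuba4a, Tubb3, Tubb4a and Tubb5. With windows of 50 bases 8 of the 9 genes shared at least 1 window in place of 5, with at most 1.11% of windows in the 3 added genes. The share of Tubb4b was then 50.9%, that of Tubb2a 49.6% and that of Tubb2b 39.3%, and with windows of 200 bases these shares were 6.72%, 24.9% and 17.8%. The authors counted reads per transcript with eXpress, which divides a read that maps to several transcripts by a model, and how it divided these reads was not tested. Values of Tuba1a and Tuba1b, and of Tubb2a and Tubb2b, are therefore uncertain one against the other, and the summed value of each pair is also given.

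**Figure D1:**
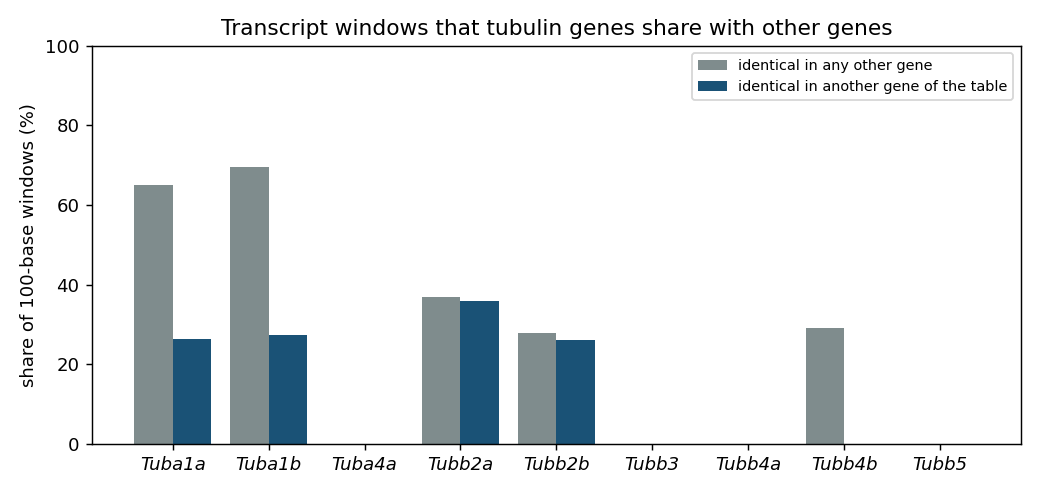
Share of 100-base windows of each tubulin transcript (vertical axis, percent, from 0) that are identical in any other annotated gene (grey) or in another gene of the table (blue). Tuba1a and Tuba1b share 65.1% and 69.5% of windows with any gene, and Tuba4a, Tubb3, Tubb4a and Tubb5 share none.

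Expression was read from the variance-stabilized log2 values that the authors deposited. HF-HI minus sham differences are in these log2 units, from limma fitted over all 5544 genes with Benjamini-Hochberg adjustment. A gene was called changed at an adjusted p under 0.05, which 3674 genes met, or 66.3% (32.6% higher and 33.6% lower in HF-HI), and in 13.5% of genes the groups did not overlap. Relative depth ran from 0.58 to 1.26 of the median library in sham (median 0.864) and from 0.548 to 1.64 in HF-HI (median 1.17). Depth thus tended to be higher in HF-HI, and total depth is unknown. Libraries also differed in how their values followed the GC content of a gene. Per 10% of exonic GC, the slope of sham libraries lay between -0.231 and 0.00582 (median -0.111) and that of HF-HI libraries between -0.0385 and 0.161 (median 0.109). Tubulin exons were 51.9% to 57.9% GC. The difference of each tubulin gene is therefore also given after this trend was removed library by library. This step also removes any true difference following GC. Sums of genes are given as deposited only. HF-HI replicate 9 stood farthest from its group, with a root mean square deviation of 0.256, and had the lowest GC slope of HF-HI.

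Of the 9 tubulin genes, 3 rose and 1 fell after HF-HI, and 5 did not pass the test. This share of called genes, 4 of 9, is below the 66.3% called over all genes. Tubb4a and Tuba4a rose by 0.47 and 0.31, Tubb3 by 0.12 as deposited but -0.11 without the GC trend, and Tubb2b fell by 0.26. In all 9 genes the groups overlapped. The median difference of the 9 genes was 0.05 as deposited, against -0.00865 over all genes. It was -0.11 without the GC trend, against -0.00959 over all genes. Without GC and length trends it was 0.04, against -0.0119. After removal of the GC trend 2 genes were higher (Tuba4a and Tubb4a) and 4 lower (Tuba1a, Tuba1b, Tubb2b and Tubb4b). With trends on both GC content and transcript length removed, 2 were higher and 1 was lower, namely Tuba4a, Tubb4a and Tubb2b. These 3 genes kept their direction and their call in every alternative with a gene-level fit that was run. All of these fits used the deposited values, so none tested how reads were divided between Tubb2b and Tubb2a. The summed level of 11 neuronal markers was higher as well, at 16.34 to 16.49 in sham and 16.54 to 16.72 in HF-HI, and its part in these differences was not tested. Because cortex was taken whole, a change in the number of cells of a type and a change in RNA per cell cannot be told apart.

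**Figure D2:**
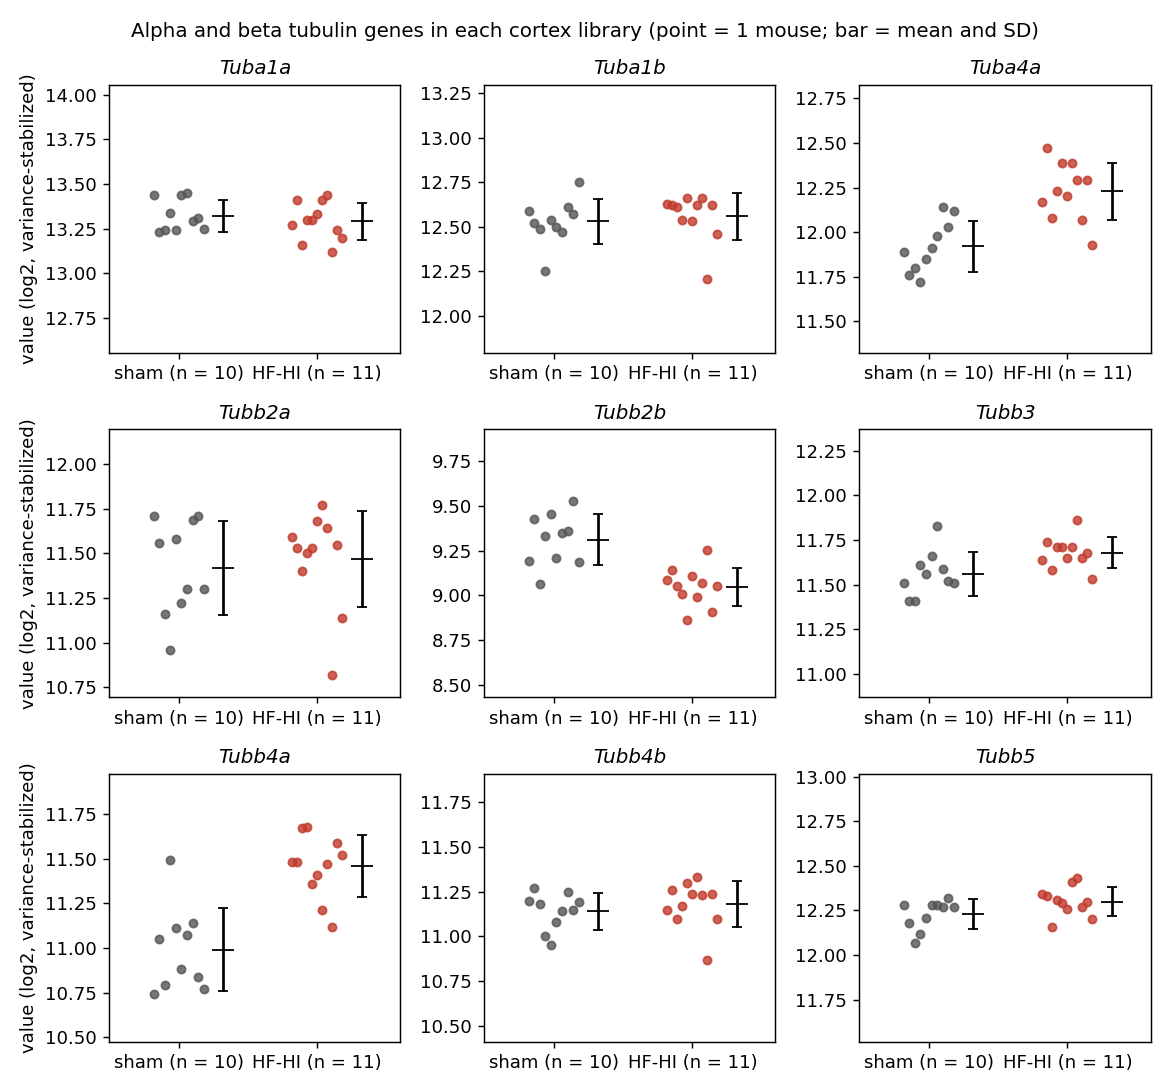
Values of the 9 tubulin genes (vertical axes, variance-stabilized log2 units, each spanning the same range) in 10 sham and 11 HF-HI libraries. Points are single mice and bars give the mean and SD, and the HF-HI points of Tuba4a and Tubb4a lie mostly above and those of Tubb2b mostly below the sham points.

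Among alpha tubulins, Tuba4a was the gene that changed. It spanned 11.72 to 12.14 in sham (median 11.90) and 11.93 to 12.47 in HF-HI (median 12.23). All 11 HF-HI mice lay above the sham median and 8 of them above the highest sham mouse. Its difference was 0.31 with a standard error of 0.0628, a fold of 1.24 (adjusted p = 0.00019, limma). The difference was 0.17 after the GC trend was removed (adjusted p = 0.0136) and 0.22 after GC and length trends were removed (adjusted p = 0.00162). With each library left out in turn it ran from 0.28 to 0.34 and was called each time.

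Tuba1a, the most abundant tubulin mRNA here, was at 13.32 ± 0.0893 in sham (SD, n = 10) and 13.29 ± 0.103 in HF-HI (SD, n = 11). Its sham values ran from 13.23 to 13.45 and its HF-HI values from 13.12 to 13.44, so the groups covered almost the same range. The difference of -0.03 (standard error 0.0418) did not pass the test (adjusted p = 0.491). Tuba1b was at 12.53 ± 0.126 in sham and 12.56 ± 0.131 in HF-HI, a difference of 0.03 (standard error 0.0536, adjusted p = 0.592). In both groups 1 library was low for Tuba1b, sham replicate 4 at 12.25 and HF-HI replicate 9 at 12.21. Without the GC trend the differences were -0.15 for Tuba1a (adjusted p = 0.00585) and -0.13 for Tuba1b (adjusted p = 0.0114), and without GC and length trends they were 0.01 and 0.03 and were not called. The direction of this pair thus depended on how sequence composition was treated, with Tuba1b turning also when library medians were centred.

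The sum of Tuba1a and Tuba1b is less affected by how reads were divided between these paralogs. As deposited, it ran from 13.90 to 14.07 in sham and from 13.74 to 14.10 in HF-HI, on the log2 scale, with means that differed by -0.0099. Without the GC trend both genes in the sum were lower, at -0.15 for Tuba1a and -0.13 for Tuba1b. The near-zero difference of the sum thus holds for the deposited values only. Reads that Tuba1c or pseudogenes may hold are not in this sum. Within each library the log2 ratio of Tuba1a to Tuba1b was 0.80 ± 0.172 in sham and 0.73 ± 0.105 in HF-HI (two-sided permutation test, adjusted p = 0.374 over 18 pairs).

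Of the beta tubulins, Tubb4a had the largest difference. Sham mice spanned 10.74 to 11.49 (median 10.97) and HF-HI mice 11.12 to 11.68 (median 11.48). Every HF-HI mouse was above the sham median, but only 4 of 11 were above the highest sham mouse, sham replicate 4 at 11.49, while the next highest sham mouse was at 11.14. The difference was 0.47 with a standard error of 0.0820, a fold of 1.38 (adjusted p = 3.26e-05). It was 0.25 without the GC trend (adjusted p = 0.00717), 0.38 without GC and length trends (adjusted p = 0.000417) and 0.44 to 0.52 with single libraries left out, and was called in each case.

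Tubb2b, the least abundant member, was the single tubulin that fell. It spanned 9.07 to 9.53 in sham (median 9.34) and 8.86 to 9.25 in HF-HI (median 9.05). All 11 HF-HI mice were below the sham median and 6 were below the lowest sham mouse. The difference was -0.26 with a standard error of 0.0529, a fold of 0.834 (adjusted p = 0.000157). Removing the GC trend gave -0.35 (adjusted p = 5.28e-06), removing GC and length trends -0.23 (adjusted p = 0.000769), and leaving out single libraries -0.29 to -0.24. HF-HI replicate 9 had the highest Tubb2b value of its group.

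Its paralog Tubb2a did not pass the test and was the most variable member. Values ran from 10.96 to 11.71 in sham and from 10.82 to 11.77 in HF-HI, with SDs of 0.264 and 0.270. The difference was 0.05 with a standard error of 0.107 (adjusted p = 0.691), and it was -0.00047 without sham replicate 4. Summed as deposited, Tubb2a and Tubb2b ran from 11.37 to 12.00 in sham and from 11.24 to 11.97 in HF-HI, a difference of -0.0014. Without the GC trend the single genes were at -0.12 (Tubb2a) and -0.35 (Tubb2b). The log2 ratio of Tubb2a to Tubb2b was 2.11 ± 0.231 in sham and 2.42 ± 0.337 in HF-HI, so Tubb2b lost ground to Tubb2a by 0.31 (two-sided permutation test, adjusted p = 0.0392). That ratio did not pass the test once the GC trend was removed, at 0.24 (adjusted p = 0.105). It was also lost in 15 of 21 fits with 1 library left out, namely sham replicates 2, 3, 4, 5, 6, 7 and 10 and HF-HI replicates 1, 2, 4, 5, 6, 7, 8 and 10, with an adjusted p of at most 0.0809. In the tail sequences printed above, these paralogs differ at 3 of 60 bases, none of which changes the encoded amino acid.

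Tubb3, the marker of neuronal identity, spanned 11.41 to 11.83 in sham (median 11.54) and 11.53 to 11.86 in HF-HI (median 11.68). It rose by 0.12 with a standard error of 0.0451, a fold of 1.09 (adjusted p = 0.0240). Tubb3 had the highest exonic GC of the members, 57.9%, and the difference was -0.11 without the GC trend (adjusted p = 0.104) and 0.05 without GC and length trends (adjusted p = 0.427). The call was lost without sham replicate 2 (adjusted p = 0.0501) or sham replicate 3 (adjusted p = 0.0515). The call was also lost with library medians centred, at 0.07 (adjusted p = 0.194), and with quantile normalization, at 0.09 (adjusted p = 0.0880).

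The broadly expressed beta tubulins did not pass the test. Tubb5 was at 12.23 ± 0.0828 in sham and 12.30 ± 0.0792 in HF-HI, a difference of 0.07 (standard error 0.0364, adjusted p = 0.0908) that was called without HF-HI replicate 3 (adjusted p = 0.0416). Tubb4b was at 11.14 ± 0.102 in sham and 11.18 ± 0.128 in HF-HI, a difference of 0.04 (standard error 0.0492, adjusted p = 0.507). Without the GC trend Tubb4b was at -0.11 (adjusted p = 0.0327) and Tubb5 at -0.02 (adjusted p = 0.649).

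**Figure D3:**
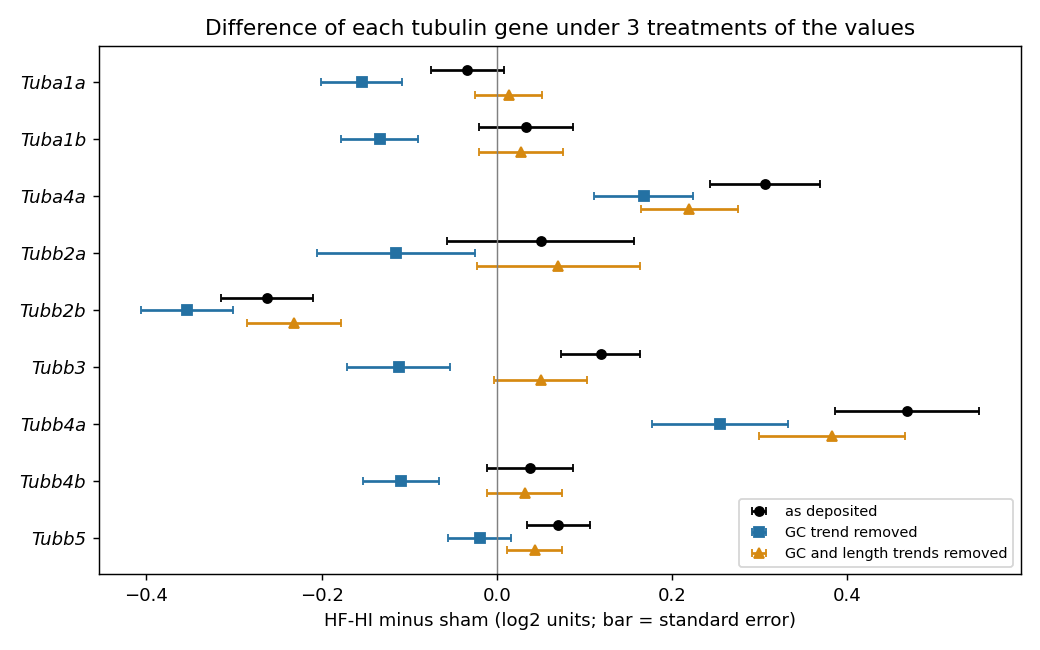
HF-HI minus sham difference of each tubulin gene (horizontal axis, log2 units, bars are standard errors) with values as deposited (black), the GC trend removed (blue) and the GC and length trends removed (orange). Tuba4a and Tubb4a stay above 0 and Tubb2b below 0 under all 3, while Tubb3 moves from 0.12 to -0.11 without the GC trend.

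Differences between isotypes were compared within libraries, where depth is shared. Over 3 alpha and 15 beta pairs, 11 ratios differed between groups at an adjusted p under 0.05 (two-sided permutation tests with 100000 resamples, adjusted over the 18 pairs). Each of the 11 holds Tuba4a, Tubb4a or Tubb2b, so they largely restate the differences of these genes and are not independent results. Ratios of other gene pairs were not tested, so no share over the table stands beside this count. Of single genes, 66.3% were called. Both alpha ratios with Tuba4a fell. Tuba1a over Tuba4a went from 1.40 ± 0.166 in sham to 1.06 ± 0.105 in HF-HI, a difference of -0.34 (adjusted p = 0.000405), and Tuba1b over Tuba4a from 0.61 ± 0.101 to 0.34 ± 0.134, a difference of -0.27 (adjusted p = 0.000576). For each, 8 of 11 HF-HI mice lay below the lowest sham mouse. These differences were -0.32 and -0.30 without the GC trend and were still called (adjusted p = 0.00027 for each).

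Among beta pairs the widest shift was between the developmental isotype and the isotype of neurons and oligodendrocytes. Tubb2b over Tubb4a was -1.68 ± 0.214 in sham and -2.41 ± 0.232 in HF-HI, a difference of -0.73 (adjusted p = 0.0003), with 10 of 11 HF-HI mice below the lowest sham mouse. Tubb2b also fell against Tubb3 by 0.38 and against Tubb5 by 0.33 (adjusted p = 0.0003 for each), and against Tubb4b by 0.30 (adjusted p = 0.0075). Tubb4a rose against Tubb4b by 0.43 (adjusted p = 0.00378) and against Tubb5 by 0.40 (adjusted p = 0.00454). Against Tubb4a, Tubb3 fell by 0.35 (adjusted p = 0.00454) and Tubb2a by 0.42 (adjusted p = 0.024). All 8 of these beta ratios passed the test after the GC trend was removed as well. The 6 beta pairs among Tubb2a, Tubb3, Tubb4b and Tubb5 did not pass the test, with differences of -0.07 to 0.08.

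Levels of different genes were compared per kilobase of transcript, as log2 values. In sham cortex Tuba1a was highest at 12.47, then Tuba1b at 11.73, and the ranges of these genes did not overlap each other or those of other members. Tubb5 at 10.82, Tubb2a at 10.73 and Tubb3 at 10.66 followed with overlapping ranges, and Tubb4b at 10.47 and Tuba4a at 10.42 overlapped likewise. Tubb4a at 9.83 and Tubb2b at 8.19 came last, and Tubb2b was apart from all others. With the union of exons as length in place of one transcript, Tubb2a and Tubb3 came above Tubb5, so this part of the order is not settled.

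As shares of the alpha total per kilobase, described here without a test, Tuba1a made up 54.4% ± 2.81 in sham and 51.8% ± 1.45 in HF-HI. Tuba1b made up 32.5% ± 2.21 and 32.4% ± 1.56, and Tuba4a 13.1% ± 0.949 and 15.8% ± 0.961, with 10 of 11 HF-HI mice above the highest sham mouse. Of the beta total, Tubb4a made up 11.9% ± 2.15 in sham and 15.1% ± 1.78 in HF-HI, and Tubb2b 3.75% ± 0.277 and 2.91% ± 0.388, with 10 of 11 HF-HI mice below the lowest sham mouse. The other beta isotypes each differed by less than 1 percentage point in mean share. Tubb5 went from 23.3% to 22.7%, Tubb3 from 20.8% to 20.9% and Tubb4b from 18.2% to 17.3%, and Tubb2a was at 21.1% in HF-HI. Without the GC trend the mean share of Tubb5 was higher in HF-HI instead, by 0.54 percentage points.

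Summed per family as deposited, the alpha total had means of 14.29 in sham and 14.35 in HF-HI, and the beta total 13.93 and 14.04. For the beta total 8 of 11 HF-HI mice exceeded the highest sham mouse. For the alpha total 4 did, and 1 was below the lowest sham mouse. Without the GC trend Tuba1a, Tuba1b, Tubb2a, Tubb2b, Tubb3, Tubb4b and Tubb5 had negative differences, and Tuba4a and Tubb4a positive ones. The log2 ratio of alpha to beta per kilobase was 0.43 ± 0.0752 in sham and 0.35 ± 0.0356 in HF-HI, and 10 of 11 HF-HI mice were below the sham median. Neither the totals nor this ratio is given without the GC trend.

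**Figure D4:**
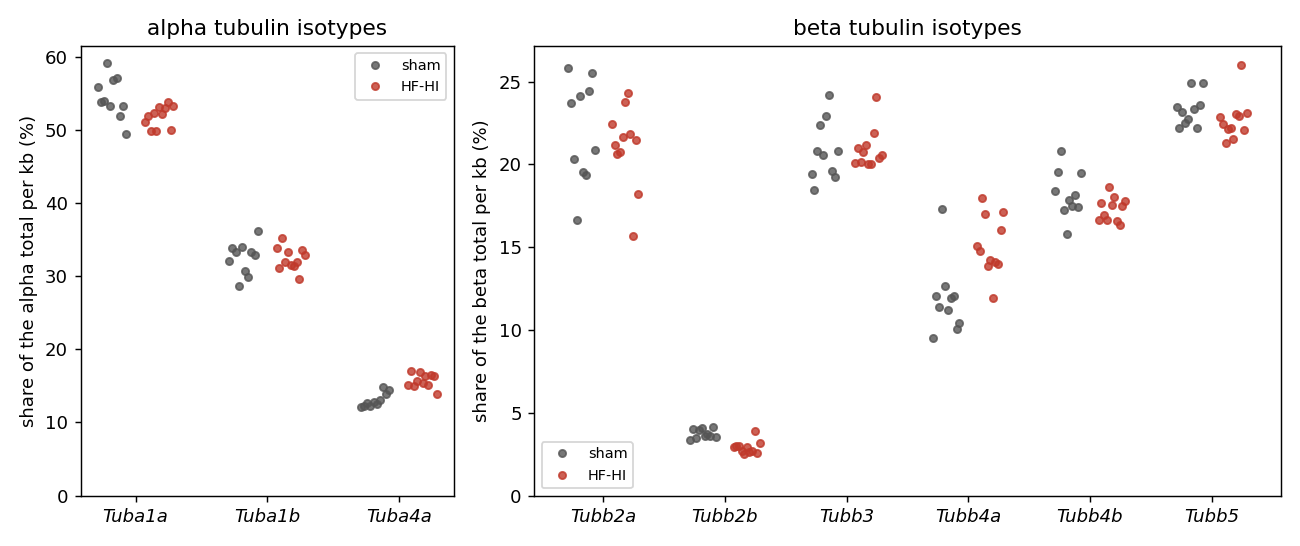
Share of each alpha (left) and beta (right) tubulin isotype in its family total per kilobase (vertical axes, percent, from 0), one point per library, grey for 10 sham and red for 11 HF-HI mice. Tuba4a and Tubb4a take larger and Tubb2b smaller shares in most HF-HI libraries, and 1 sham library stands at 17.3% for Tubb4a.

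Variation between mice of the same group was examined after group means were subtracted, over 21 libraries that share depth and composition effects, and is given as a description. Tuba1b varied most closely with Tubb2a (r = 0.739) and Tubb4b (r = 0.708), and Tuba1a with Tubb3 (r = 0.705). The near-identical pairs did not track each other closely, at 0.248 for Tuba1a and Tuba1b and 0.031 for Tubb2a and Tubb2b. Tubb4a was only weakly or inversely related to the other members, from -0.328 with Tubb5 to 0.172 with Tubb3.

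Over the whole table, the genes whose variation was most like that of Tubb4a were Pcbp2, an RNA-binding protein (r = 0.862), and Vamp2, the synaptic vesicle SNARE (r = 0.844). For Tuba4a they were Kif3c, a kinesin motor (0.869), and Tyro3, a receptor tyrosine kinase (0.850), and for Tubb2b Grb10, an adaptor of insulin signaling (0.746), and Alg2, a glycosylation enzyme (0.732). Tubb2a was closest to Map2k1, the ERK kinase MEK1 (0.885), and Tmem179 (0.883), and Tubb3 to Abcf3 (0.783) and the glycolytic enzyme Aldoa (0.769). Tuba1a was closest to the co-chaperone Sugt1 (0.725) and the polymerase subunit Polr2g (0.722), and Tuba1b to Polr1a (0.871, but 0.541 without the 2 libraries farthest from the median) and Slc25a44 (0.831). Tubb4b was closest to Mcrs1 (0.835) and Anxa6 (0.816), and Tubb5 to Trim2 (0.817) and Scamp1 (0.793).

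Before tubulin can polymerize it is folded by the prefoldin complex, the ring-shaped chaperonin made of Tcp1 and the Cct subunits, and the tubulin cofactors Tbca to Tbce. Of 21 such genes 14 had values, and 12 of them fell, 1 rose and 1 did not pass the test, where 33.6% of all genes were lower. The median difference was -0.23, against -0.00865 over all genes, and 11 were lower without the GC trend and 10 without GC and length trends. The prefoldin subunit Vbp1 ran from 9.09 to 9.54 in sham and from 8.77 to 9.09 in HF-HI, a difference of -0.30 that was 0.01 without GC and length trends. Chaperonin subunit Cct5 ran from 10.26 to 10.58 in sham and from 9.97 to 10.22 in HF-HI, without overlap, a difference of -0.30. Prefoldin subunit Pfdn5 fell by 0.29. The groups did not overlap in 5 of the 14 (Tbce, Cct2, Cct4, Cct5 and Cct6a), against 13.5% of all genes. Tbcel, a relative of Tbce that destabilizes tubulin, rose by 0.11 but was not called with library medians centred, at 0.05 (adjusted p = 0.173), and Cct7 was at -0.03 (adjusted p = 0.618).

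Scaper, which recruits the deadenylase complex in tubulin mRNA autoregulation, was the single gene of 3 in that pathway with a value. It went from 9.72 ± 0.110 in sham to 9.56 ± 0.108 in HF-HI, a fall of 0.16 (adjusted p = 0.00421), and by 0.09 without the GC trend (adjusted p = 0.0473). None of the 11 other tubulin genes, among them Tuba1c, Tuba8, Tubb6 and the gamma tubulins, was analysed here.

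Enzymes that modify the tubulin tail or an acetylated lysine of tubulin, together with subunits of their complexes, had values for 10 of 26 genes. Of these 10 genes 2 rose, 1 fell and 7 did not pass, where 32.6% of all genes were higher and 33.6% lower. The number lower was 4 without the GC trend, 5 without GC and length trends, 5 with library medians centred, 4 without sham replicate 7 and 2 without sham replicate 4, 5 or 6 or HF-HI replicate 1, 2, 9 or 10. Nicn1, a subunit of the neuronal tubulin polyglutamylase complex, ran from 8.01 to 8.98 in sham and from 9.12 to 9.39 in HF-HI, without overlap, a difference of 0.89 (adjusted p = 1.17e-07). Ttll5, a glutamylase, rose by 0.16, and Ttll7, a glutamylase of beta tubulin in neurons, fell by 0.23. Lrrc49 and Tpgs2, other subunits of the same complex as Nicn1, were at -0.02 and 0.01 and did not pass the test. Of 15 genes for nucleation and severing, 7 had values and 2 fell, the severing enzyme Spast by 0.16 and the gamma-tubulin complex component Mzt1 by 0.15, the latter being -0.07 and not called without the GC trend and 0.03 without GC and length trends.

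Proteins that act on microtubule ends or sequester dimers had values for 16 of 18 genes, with 5 higher, 5 lower and a median difference of 0.03, which is close to the 32.6% higher and 33.6% lower over all genes. Mapre2, an end-binding protein, ran from 9.92 to 10.65 in sham and from 10.76 to 11.25 in HF-HI and rose by 0.79. The stathmins, which bind free dimers, went apart. Stmn2 was at 10.20 ± 0.114 in sham and 10.89 ± 0.107 in HF-HI, without overlap, and rose by 0.70, whereas Stmn3 and Stmn4 fell by 0.32 and 0.35. As deposited, Stmn1 was at 0.10 and did not pass the test. It was called higher in limma without the GC trend, at 0.18 (adjusted p = 0.00593), and without GC and length trends, at 0.34 (adjusted p = 2.63e-05). Camsap1, a minus-end protein, rose by 0.31 and Ckap5, a polymerase of plus ends, fell by 0.21. Over the 5 lists with values, 29 of 48 genes were called, or 60.4%, against 66.3% over all genes.

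**Figure D5:**
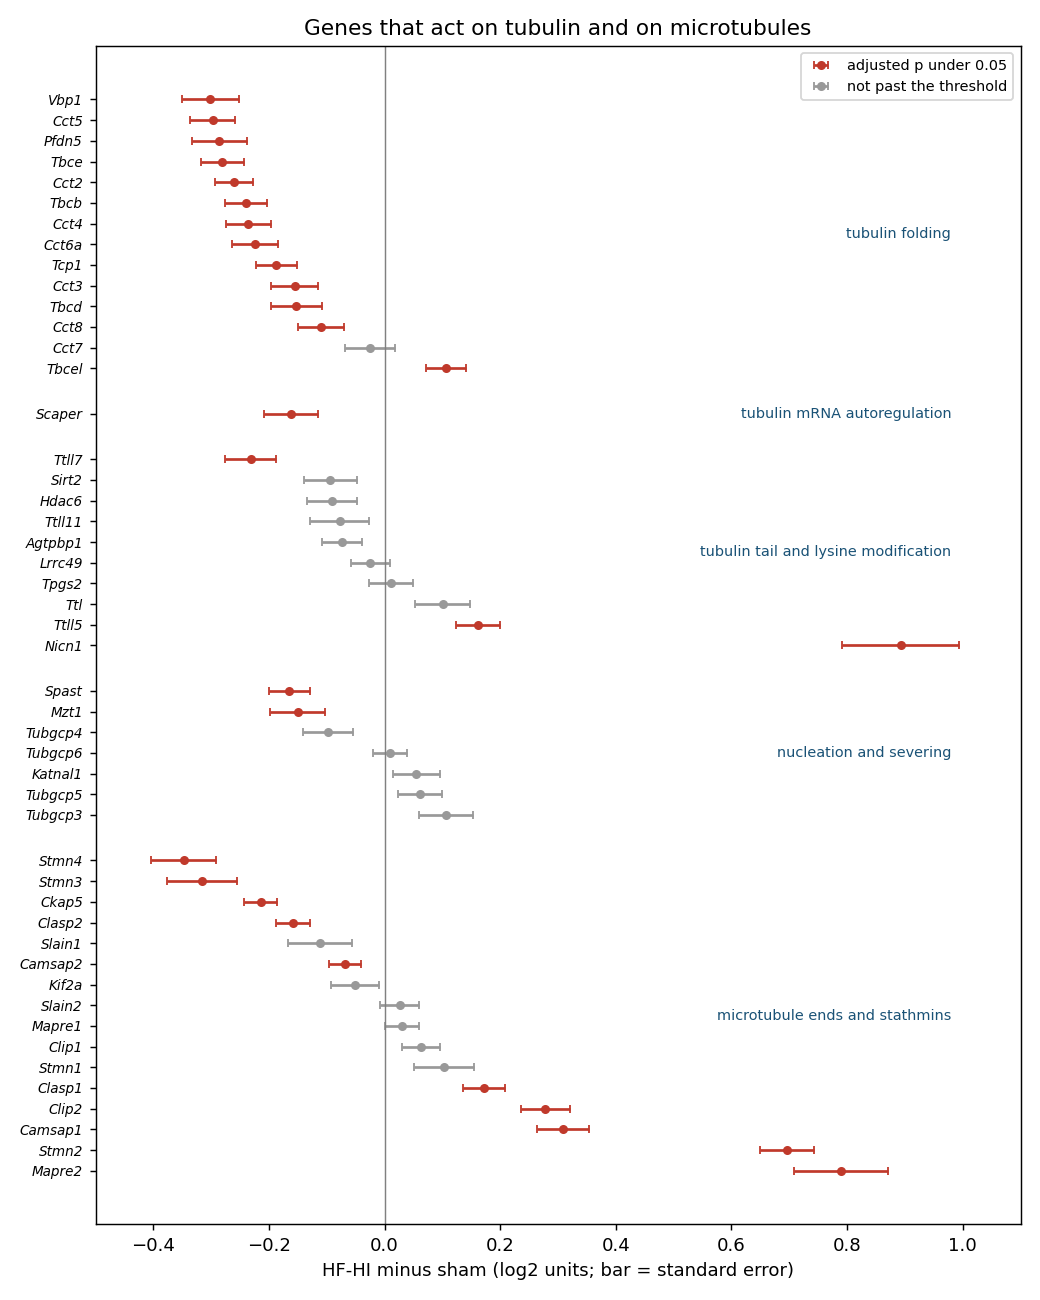
HF-HI minus sham difference of 48 genes that act on tubulin or microtubules (horizontal axis, log2 units, bars are standard errors), grouped by list. Red marks an adjusted p under 0.05, and 12 of 14 folding genes lie in red below 0 while Nicn1, Mapre2 and Stmn2 lie between 0.70 and 0.89.

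Markers of cortical cell types were set beside these values. Of the 11 neuronal markers 7 were higher and 0 lower, where 32.6% of all genes were higher, and the summed levels of the groups did not overlap. Without the GC trend 7 were higher and 1 lower, the glycolytic enzyme Eno2 at -0.25. The 11 markers include Slc17a7, the vesicular glutamate transporter of cortical excitatory neurons, which rose by 0.89, the largest difference of the list. As deposited, Gad1 (-0.10), Gad2 (-0.01), Nefl (-0.0039) and Eno2 (-0.06) did not pass the test. Of 9 oligodendrocyte markers 3 were higher (Mbp, Cldn11 and Olig1), near the 32.6% over all genes. None of them was lower, where 33.6% of all genes were. Without the GC trend 2 were higher and 2 lower. Their summed level ran from 15.36 to 16.07 in sham and from 15.39 to 16.06 in HF-HI. Of 8 astrocyte markers 3 were higher and 2 lower, near the shares over all genes, with summed levels of 16.03 to 16.15 and 16.07 to 16.21. Of the 3 immature neuron markers with values, Tmsb10, a small actin-binding protein, rose by 0.52 without overlap, and Dcx, a microtubule-binding protein, fell by 0.18 but was at -0.05 and not called without the GC trend (adjusted p = 0.391). Dpysl3 did not pass the test, and the list had summed levels of 10.51 to 10.67 and 10.55 to 10.74. The part of these cell types in the rise of Tuba4a and Tubb4a and in the fall of Tubb2b was not tested.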

How the data were processed

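Total RNA of dissected cortex from 10 sham and 11 HF-HI mice was made by the authors into stranded libraries after removal of ribosomal RNA and sequenced as 100-base paired-end reads in pools. The authors aligned reads to mm10 with STAR, counted them per transcript with eXpress and normalized with DESeq2, and the values they deposited are variance-stabilized on a log2 scale, 1 per Ensembl gene and mouse. Versions of STAR and eXpress are not given in the sources used here. Groups and replicate numbers came from the labels. As counts were not used here, total depth is unknown and no count model was fitted, and the spread between mice limits the precision. Relative depth was estimated from the spacing of values.

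Symbols, positions, transcripts and GC content came from the GENCODE annotation of GRCm38, with a symbol for 5541 and a GC content for 5539 of 5544 genes. HF-HI was compared with sham in limma 3.58.1 (R 4.3.3) with a trended eBayes, as two-sided tests called at a Benjamini-Hochberg adjusted p under 0.05. Ratios within libraries were compared by permutation tests with 100000 resamples. Sequences were handled with Biopython 1.88, and ratios and permutations with numpy 2.4.6 under Python 3.11.15. Trends on GC content, and on GC and length, were removed per library with a lowess curve of span 0.3. Levels per kilobase were 2 to the power of the value over the transcript length. Scripts were tested on simulated data. Members, gene lists and tests were chosen with earlier results of these data known. Genes named are all members, for each list the 3 genes with the largest absolute difference called in each direction and all genes of lists of up to 3, and for each member the 2 genes with the highest correlation. Genes without overlap, Cct7, Stmn1, Lrrc49, Tpgs2 and the markers named were chosen after their values were seen. Same-numbered sham and HF-HI mice were not paired. Alternatives were an untrended eBayes, a rank-sum test, centred medians, quantile values, the lowest quartile of genes left out, an adjusted p of 0.1, a minimum absolute difference of 0.25, relative depth as a covariate, the replicate number as a block, other windows and gene lengths, and each library left out in turn. Some sequences and values are not reported here.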

Additional observations from a re-analysis of the deposited data

Results flagged for a closer look

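In 5 of 58 quantities examined, 1 sham library lay apart from the other 9 by a gap over 0.466 of the whole range (Dixon's limit for 10 samples), a limit that chance passes in about 1 of 20 groups. HF-HI, with 11 mice, was not examined in this way. In 3 of them it was sham replicate 4, whose Tubb4a value was high: a Tubb4a share of 17.3% of the beta total, a log2 ratio of Tubb2a to Tubb4a of -0.52, and a log2 ratio of Tubb4a to Tubb5 of -0.63. For Ttll5 it was sham replicate 8 at 9.27, the highest of its group, and for Mzt1 sham replicate 2 at 9.94, the lowest of its group.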

How the results depend on the processing

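Values are mean log2 differences from 10 and 11 mice of unknown total depth. Of the members, 4 were called, and 3 to 6 under the alternatives. With an absolute difference of at least 0.25, 12 of the 29 list genes and 5 of the 12 lower folding genes were called, and with 50-base windows 8 genes shared sequence. Without the GC trend 4 members were lower in place of 1, and 3 with the block as well. Counts of single lists of up to 5 called genes moved under several alternatives, among them higher nucleation and severing genes from 0 to 1, lower tail modification genes from 1 to between 0 and 5, and lower genes of microtubule ends and stathmins from 5 to 2 at the minimum difference. With single libraries left out the member count ran from 3 to 5 and the pair count from 10 to 11. Directions turned for members not called or, for Tubb3, called as deposited. Without the GC trend differences were -0.13 for Tuba1b, -0.12 for Tubb2a, -0.11 for Tubb3, -0.11 for Tubb4b and -0.0197 for Tubb5, and the ratios of Tubb2a to Tubb4b, Tubb3 to Tubb4b and Tubb3 to Tubb5 were -0.0056, -0.0021 and -0.092. Without GC and length trends Tuba1a was 0.0135, Vbp1 0.0149 and Mzt1 0.0344. With library medians centred, which moved the median of all genes from -0.00865 to -0.0605 (26.1% higher and 42.9% lower), Tuba1b was -0.0183, Tubb2a -0.0020 and Tubb4b -0.0139, and with relative depth as a covariate -0.0290, -0.0988 and -0.0270. The cause of these turns was not tested. With single libraries left out Tubb2a ran from -0.00047 to 0.11, the ratio of Tubb2a to Tubb4b from -0.0232 to 0.0506 and that of Tubb2a to Tubb5 from -0.0585 to 0.0409.

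Same-numbered mice had correlations of -0.31 to 0.364 (4 of 10 over 0.1), and 0 sham libraries matched their own number best. With the replicate number as a block, 5 members were called, Tubb5 (adjusted p = 0.0436) in addition, and 1740 genes were higher and 1758 lower. The ratio of Tubb2a to Tubb5 was 0.0026, and those of Tubb2a to Tubb2b, at 0.35 (adjusted p = 0.0703), and to Tubb4a, at -0.38 (adjusted p = 0.0633), lost their call in a permutation test over the 10 same-numbered pairs, which leaves out HF-HI replicate 11. With the block and the GC trend removed, Tuba1b was -0.13, Tubb2a -0.0898, Tubb3 -0.11, Tubb4b -0.11 and Tubb5 -0.0150.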

Other observations

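Further cell type markers were described in the same way. Among microglial markers, the lysosomal gene Ctss was lower by 0.30 and Csf1r, the receptor of the microglial growth factor CSF1, was higher by 0.13. Of the 3 endothelial markers Flt1 was higher by 0.28, Slco1a4 lower by 0.24 and Bsg at 0.02, with summed levels of 11.59 to 11.81 in sham and 11.66 to 11.74 in HF-HI. Both choroid plexus markers with values, Ttr and Enpp2, did not pass the test, and Ttr reached 13.35 in HF-HI replicate 3 against a median of 7.25 in its group.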
